A study of Mus musculus with 8 samples.

Results

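The 47 genes described here are homeobox and POU genes of forebrain patterning, taken with their measured values in the striatum of R6/2 and wild-type (WT) mice. A probe was counted as a member when the gene name in the scanner files, or the gene symbol in the authors' deposited table, was that of a listed gene. This gave 75 probes for 47 of the 22892 named genes on the array, out of 55681 non-control probes. Of the 75 probes, 73 were matched by the scanner name and the other 2, both of Pou3f2, by the deposited symbol only. The array carried more than 1 probe for 22 of the 47 genes.

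R6/2 mice model Huntington's disease with a transgene that holds the 5′ end of human huntingtin, its CAG repeat expanded, under the human promoter. Both groups were striatal RNA of male mice aged 4 weeks, with 4 arrays of R6/2 and 4 of WT controls, and the labels name no treatment, drug or strain. Arrays are called WT 1 to WT 4 and R6/2 1 to R6/2 4 after the replicate numbers of the labels. The labels do not say that each replicate was a separate mouse, so the spread behind each p-value is that between these samples and may be technical in part.

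Homeobox genes encode transcription factors that bind DNA through a homeodomain, and POU proteins carry a POU-specific domain beside it. In the embryo, factors such as Gsx2, the Dlx proteins and Isl1 specify the ganglionic eminences, from which the striatum and many interneurons arise, while Pax6, the Emx proteins and Lhx2 act in the cortex and Otx2 in the choroid plexus and diencephalon. In the mature striatum several of them remain in given cell types, such as Meis2 in projection neurons, Lhx6 in interneurons and Lhx8 and Isl1 in cholinergic neurons.

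Probe sequences are given for the genes whose probes decide how a result reads. Each was read from the scanner files, 5′ to 3′, and only its leading 30 bases of 60 are printed, with no capitals. The pairs below differ in detection for Gsx2, differ in their fitted difference for Zfhx2 and Cux2, and lie close together in it for Lhx6, and positions are on build mm9, as the scanner files give them.
Gsx2 probe at chr5:75473670-75473729: tgtcttttcagaacttgatgagaagagggg
Gsx2 probe at chr5:75473487-75473546: agctcctctttatctgggattccactcagt
Zfhx2 probe at chr14:55680514-55680573: ccagaggaatgaagtaaagaaaaacataaa
Zfhx2 probe at chr14:55682017-55682076: tttggtcctcagttacagggggcatacttc
Cux2 probe at chr5:122308503-122308562: gatctgcaaacagatccgtccactccacat
Cux2 probe at chr5:122310226-122310285: aaataaagaaatatttatagacctctttca
Lhx6 probe at chr2:35937644-35937703: aatgtacaggtcatcgaggctatttattta
Lhx6 probe at chr2:35937470-35937529: tcttatttgtgtaataaataaagttaatgc
The member domain itself is visible in a probe of Pou3f2, a POU factor of neural progenitors and neurons, at chr4:22414031-22414090. Its capitals mark the stretch that codes for the DNA recognition helix of the homeodomain, a helix that related POU proteins share, and whether their RNA adds to the signal of this probe was not tested.
Pou3f2 coding probe: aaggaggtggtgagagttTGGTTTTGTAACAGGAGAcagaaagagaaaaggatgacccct
All 62 probes of members with a promoter entry in RefSeq lay on the strand of their gene. Gene models of mm9 were not used here, so the exon or untranslated place of the other probes is not given. The leading 30 bases of the dimmer Otx2 probe and of the undetected Dlx1 and Zeb2 probes occur in windows before start sites of these genes, described next.

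The windows of 250 bases before the start sites of 37 members (56 entries, RefSeq, GRCm38.p6) were searched on both strands for TAATTA, the core that many homeodomains bind and its own reverse complement. It was found in 2 of the 56 windows (3.57%), both of Otx2, and in 4.84% of all 32851 windows of that length. The octamer ATGCAAAT, bound by POU proteins, was in 0 of the members' windows and in 1.6% of all. TGACAG, a core bound by Meis proteins, was in 7.14% of the members' windows and 15.9% of all, and CCAAT in 33.9% and 33.8%. The members' windows were richer in G and C, with a median of 57.8% against 52.4%, and held a median of 14 CpG pairs against 6. The Otx2 window with 3 copies is printed because it is the clearest match among the members, with TAATTA in capitals, and a match is a description of letters only.
Otx2 window at chr14:48665110-48665359, minus strand, GRCm38.p6: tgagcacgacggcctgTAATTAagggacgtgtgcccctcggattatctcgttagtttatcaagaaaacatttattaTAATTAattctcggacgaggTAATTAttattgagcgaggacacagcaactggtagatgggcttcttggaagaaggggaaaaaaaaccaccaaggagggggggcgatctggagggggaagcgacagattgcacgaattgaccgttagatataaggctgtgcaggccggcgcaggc
Promoter entries of Otx1, Gbx1, Dlx5, Dlx6, Zeb1, Zfhx4, Onecut2, Pou3f1, Pbx3 and Tshz1 were not among those used here.

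Nearly all members were detected in the striatum at 4 weeks. The scanner software marks a spot as well above background, and by that mark 44, 44, 45 and 45 of the 47 genes had a detected probe on WT 1 to WT 4, and 45, 46, 45 and 47 on R6/2 1 to R6/2 4. In probes, these were 63, 63, 64 and 64 of 75 on the WT arrays and 64, 66, 64 and 68 on the R6/2 arrays. R6/2 4 had the most, and it also had the highest share of all probes above background (67.7%, against 61.5% to 64.9% on the other arrays). A probe was tested where it was above background on 4 or more arrays. All 47 genes had such a probe, and 42 had a probe above background on all 8. Of the members' probes 88% met the rule, against 63.1% of all non-control probes. No spot was saturated on any array.

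The detection of a few members rested on faint signal. Of the 75 probes, 60 were above background on all 8 arrays, 4 on 1 to 3 arrays, and 5 on 0. These last 5 were further probes of Dlx1, Lhx9, Onecut1, Six3 and Zeb2, genes whose other probes were detected. Otx1, a paralog of Otx2 in the cortex, Onecut1, a CUT factor, and Pou3f4, an X-linked POU factor, were each above background on 1 of 4 WT arrays and 3 of 4 R6/2 arrays. Gbx1, a factor of cholinergic neurons of the basal forebrain, went the other way, with 4 WT arrays and 2 R6/2 arrays. Gsx2, which specifies the lateral ganglionic eminence, was above background on 3 WT and 4 R6/2 arrays with 1 probe and on 0 WT and 4 R6/2 arrays with the other.

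**Figure D1:**
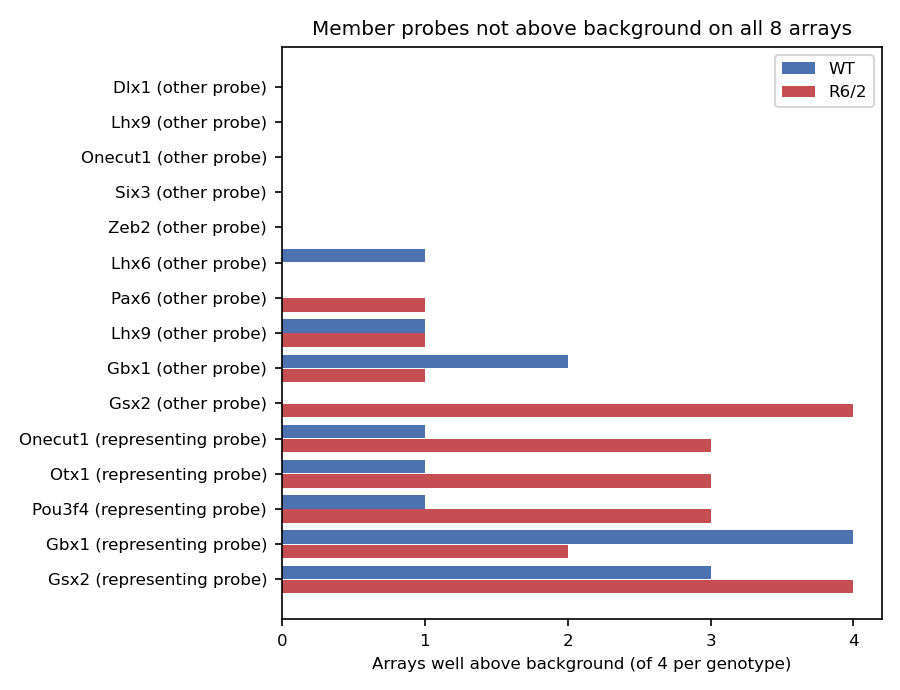
Number of arrays of each genotype (of 4, x axis) on which each member probe that was not above background on all 8 arrays was marked well above background (bars, WT and R6/2). The other probe of Gsx2 is marked on 0 WT and 4 R6/2 arrays, and 5 probes are marked on none.

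All 8 arrays were on 1 slide in 1 scan, the WT arrays in its row 1 and the R6/2 arrays in row 2, so the slide row and the genotype cannot be told apart. Arrays of 1 genotype correlated at 0.983 to 0.992 across probes. Of 10 markers of striatal projection neurons, all 10 were tested, and 9 had a negative difference in R6/2. At an adjusted p under 0.05 in limma 6 were called lower, against 1.49% of all genes. For 9 all R6/2 arrays lay below all WT arrays, against 6.72% of all genes. The summed signal of these 10 markers, in multiples of each array's 75th percentile, was 673 to 763 on the WT arrays and 363 to 487 on the R6/2 arrays. In bulk RNA, fewer cells of a type and less RNA per cell cannot be told apart.

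Signals below are log2 values relative to the 75th percentile of each array, so that 0 is the 75th percentile, and differences are R6/2 minus WT on the log2 scale with the standard error (SE) of limma, n = 4 per genotype. A probe was called when its p-value from limma, adjusted by the Benjamini-Hochberg method over all 35121 tested probes, was under 0.05. Values are from this main fit, which did not pair the arrays, unless another is named. Where a gene had several tested probes, the brightest on average represented it. No level of a gene is read from the signal of its probe against that of another gene.

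Few of the members differed between the genotypes. Of the 47 genes, 1 was called (2.13%), which was Onecut2, lower in R6/2, and the share over the array was 1.95% (330 of 16881 named genes, 0.468% higher and 1.49% lower). With the replicate number as a block, which paired the arrays, 177 genes were called over the array and Zfhx2 in place of Onecut2 among the members. An unadjusted p under 0.05 was found for 12 members (25.5%), 6 higher and 6 lower, against 19% of all genes (9.18% higher, 9.8% lower). The 4 R6/2 arrays lay on 1 side of all 4 WT arrays for 5 members (10.6%), against 14.5% of all genes. These were Gsx2, Isl1 and Zfhx4, which were higher (7.81% of all genes), and Onecut2 and Cux2, which were lower (6.72%). The share of member genes called was thus near that of the array. In probes, 2 of 66 tested were called (1.51% over the array), those of Onecut2 and Gsx2. The Gsx2 probe met the rule for testing only through the R6/2 arrays, where it is high, so its call adds no support.

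The members' differences scattered to both sides of 0. A positive difference was found for 22 genes and a negative one for 25, and the median was -0.01, beside 0.02 over all genes. The median size without the sign was 0.19, beside 0.13 over all genes. A difference of at least 1.5-fold was fitted for 5 members (10.6%), namely Gbx1, Lhx9, Onecut1, Gsx2 and Zfhx2, against 5.75% of all genes. With normexp background correction Gsx2 (0.25), Lhx9 (-0.33) and Zfhx2 (-0.46) fell short of that fold, as did Zfhx2 with the mean of its probes (-0.39). The normexp differences of Gbx1 and Onecut1 are not given here, so whether they kept that fold is not known. Gbx1, Onecut1 and Gsx2 were not above background on every array. The SE of a member's difference ran from 0.07 to 0.66 with a median of 0.13. Of the 16 members with several tested probes, 13 had all of them on the same side of 0.

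**Figure D2:**
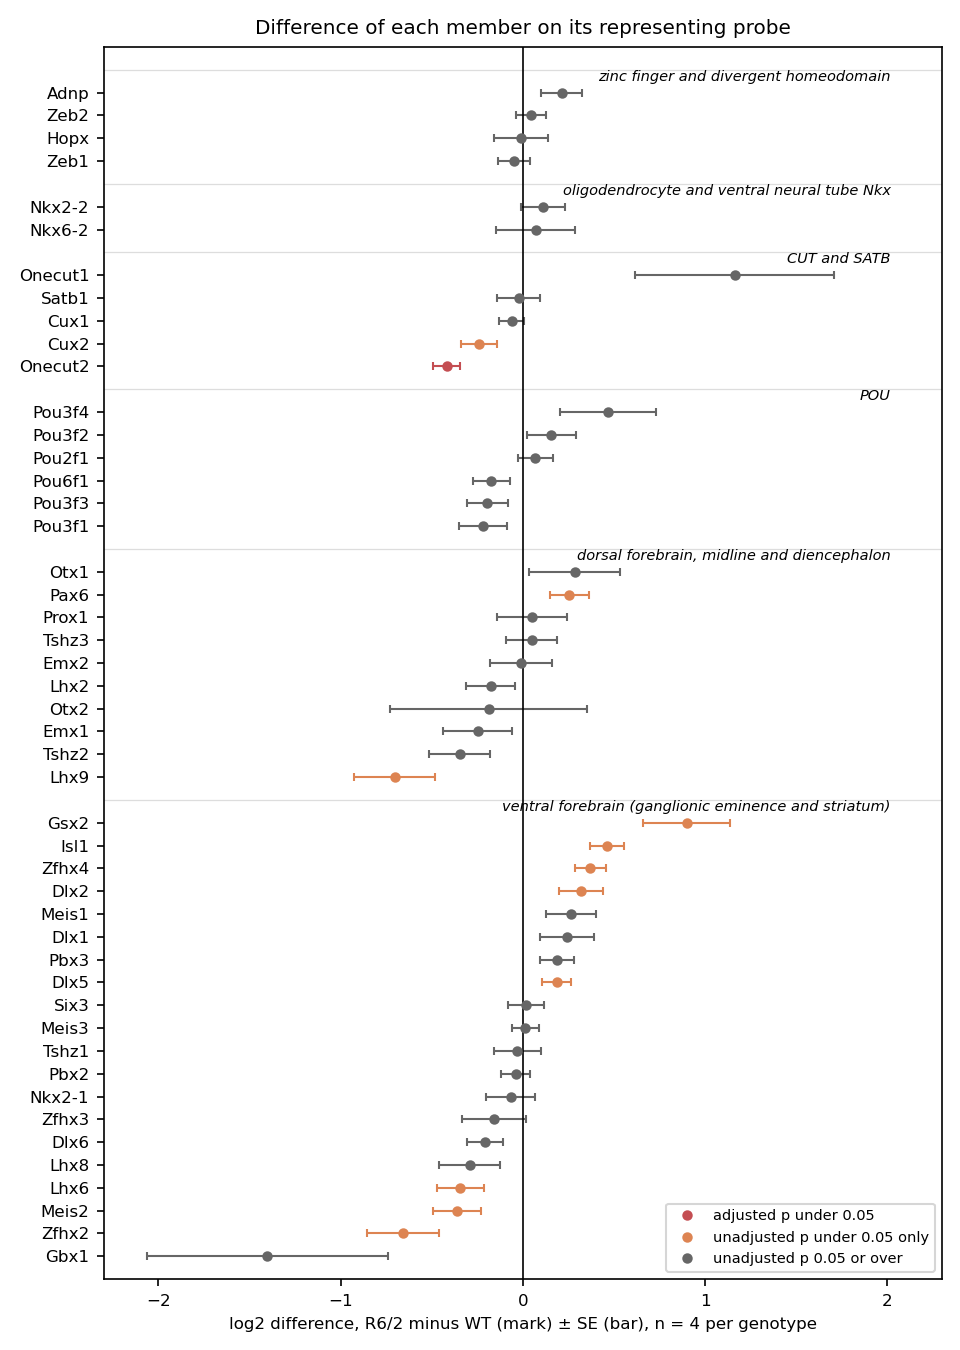
Log2 difference, R6/2 minus WT, of each of the 47 members on its representing probe (points) with its SE (bars, n = 4 per genotype), grouped by role and ordered within each role. Onecut2 (-0.42) has an adjusted p under 0.05, and the widest bar is that of Gbx1 (SE 0.66).

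Among the 20 genes of the ventral forebrain, the territory that forms the striatum, 0 were called by limma on their representing probe, 5 had an unadjusted p under 0.05 and a higher signal in R6/2, and 3 had one and a lower signal, where 9.18% and 9.8% of all genes did. The share of these 20 whose genotypes did not overlap was 15%, near the 14.5% of all genes. Gsx2, Isl1, Zfhx4, Dlx2 and Dlx5 were the 5 with higher signal, and Meis2, Lhx6 and Zfhx2 the 3 with lower signal.

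Gsx2 is active in dividing progenitors of the lateral ganglionic eminence and, after birth, of the subventricular zone beside the striatum. On its dimmer probe (chr5:75473670-75473729) the signal was -5.54, -6.48, -6.12 and -5.87 on the WT arrays and -4.83, -4.12, -4.65 and -4.99 on the R6/2 arrays. No WT array reached any R6/2 array, and no WT array was well above background. With each WT value raised to a floor, the R6/2 mean was 1.55-fold that of WT. This value is not a lower limit, since normexp background correction gave a smaller difference, given below. The fit gave 1.35 ± 0.24 (limma, adjusted p = 0.0431), but the probe was tested only because all R6/2 arrays were above background, and its WT level is not measured, so neither this size nor this p is support for a rise. The floor was, on each WT array, the higher of the probe's own signal and the lowest signal among probes above background. The brighter probe (chr5:75473487-75473546) had -4.45, -4.60, -4.97 and -5.57 in WT and -4.03, -3.75, -4.27 and -3.95 in R6/2. Here too the genotypes did not overlap, with WT 4 the lowest array, and the difference of 0.90 ± 0.24 was not called (limma, adjusted p = 0.109). The adjusted p of the dimmer probe was over 0.05 with the replicate number as a block (adjusted p = 0.100), with quantile normalization (0.0840), with no filter (0.105) and with any array left out (0.0561 to 0.104). With normexp background correction the difference was 0.25 on both probes (adjusted p = 0.111 for the dimmer and 0.153 for the brighter). The mean of both probes, which includes the one not measured in WT, was 1.13 (adjusted p = 0.0220).

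Isl1, a LIM homeodomain factor of cholinergic and direct pathway neurons, came next. Its probe (chr13:117088774-117088833) was printed 10 times on each array, and the spread of these spots within an array was an SD of 0.05 to 0.09. The signal was -0.59, -0.48, -0.81 and -0.61 in WT and -0.06, -0.20, -0.11 and -0.29 in R6/2. All R6/2 arrays were above all WT arrays, by 0.46 ± 0.09, and the adjusted p was 0.0555 in limma. Isl1 was called with normexp (adjusted p = 0.0251), with only the probes above background on all 8 arrays (0.0437), with array weights (0.0291) and with the mean of a gene's probes (0.0373). It was not called in the other alternatives. Its adjusted p in limma was 0.0876 with the replicate block, 0.0503 with quantile normalization, 0.0509 with the deposited log2 values and 0.138 with no filter. In the 8 fits without 1 array it was 0.0686 to 0.131. Lhx8, the partner of Isl1 in cholinergic neurons, had a difference of -0.29 ± 0.17 (limma, adjusted p = 0.423), and Gbx1 one of -1.40 ± 0.66 (0.330). For Gbx1 WT 4 stood apart at -1.58, with -4.30, -4.17 and -4.48 on WT 1 to WT 3 and -5.94 to -4.34 in R6/2. Only 2 of the R6/2 arrays were above background for it. On the same arrays the 5 cholinergic markers, all tested, summed to 16.8 to 18.9 in WT and 11.6 to 17.0 in R6/2, and 0 of them were called by limma. Their part in the values of Isl1, Lhx8 and Gbx1 was not tested.

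Zfhx4, a large zinc finger homeodomain factor, had a signal of -1.38, -1.63, -1.67 and -1.43 in WT and -1.10, -1.22, -1.20 and -1.12 in R6/2. The genotypes did not overlap, and the difference was 0.37 ± 0.09 (limma, adjusted p = 0.0801). Its other probe gave 0.32 (adjusted p = 0.218). Zfhx2, of the same family, went the opposite way on its brighter probe, with -1.33, -0.93, -0.55 and -1.23 in WT and -1.77, -1.67, -1.28 and -1.95 in R6/2. R6/2 3 was above WT 1, and the other R6/2 arrays lay below all WT arrays. The difference was -0.66 ± 0.20 (adjusted p = 0.150), and with the replicate block Zfhx2 was the 1 member called (adjusted p = 0.0495). Its other probe, printed above, gave -0.12 ± 0.14 (adjusted p = 0.709). Zfhx3, the third of the family, had a difference of -0.16.

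The Dlx genes drive GABAergic fate downstream of Gsx2, and 3 of the 4 had a positive difference, with 0 called by limma. Dlx2 had -0.15, -0.37, -0.25 and -0.39 in WT and 0.16, 0.22, -0.28 and 0.01 in R6/2. R6/2 3 lay among the WT arrays while the other R6/2 arrays lay above them, and the difference was 0.32 ± 0.12 (limma, adjusted p = 0.234). Its neighbour Dlx1, given here after its values were seen, had -0.90, -1.12, -0.77 and -0.91 in WT and -0.55, -0.54, -1.10 and -0.53 in R6/2. Again R6/2 3 alone was within the WT range, and the difference was 0.24 ± 0.15 (adjusted p = 0.447). Dlx5 had -0.58, -0.49, -0.48 and -0.56 in WT and -0.30, -0.30, -0.24 and -0.52 in R6/2. R6/2 4 was its low array, not R6/2 3, and the difference was 0.19 ± 0.08 (adjusted p = 0.284). Dlx6, its neighbour, was lower in R6/2 by fitted value, at -0.21 ± 0.10 (adjusted p = 0.338).

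Genes of immature neurons were set beside the Dlx genes. Among 7 markers of neural progenitors and neuroblasts, all tested, 2 were called higher, Sox11 (0.64 ± 0.07, limma, adjusted p = 0.0104) and Dcx (0.60 ± 0.11, adjusted p = 0.0489), and 0 were called lower. Of all genes 0.468% were called higher. A positive difference was found for 6 of the 7 markers and a negative one for 1, with a median of 0.28. The summed signal of the list, in which bright markers weigh most, was 18.4 to 24.4 in WT and 20.0 to 22.8 in R6/2. Igfbpl1, a gene of neuroblasts, had -1.44, -1.62, -2.20 and -1.34 in R6/2, and the proliferation gene Mki67 had -0.05, -0.11, -0.81 and -0.37. R6/2 3 was the lowest R6/2 array for both, as it was for Dlx1 and Dlx2. By the summed list, R6/2 3 (20.0) was the lowest R6/2 array and WT 3 (18.4) the lowest WT array. On WT 3 Dlx1 had its highest WT signal (-0.77), and Dlx2 (-0.25) was above WT 2 and WT 4. The part of these cells in the Dlx values was not tested.

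Lhx6, which marks interneurons of the medial ganglionic eminence, was lower by fitted value. Its brighter probe had 5.15, 5.19, 5.52 and 5.44 in WT and 4.72, 4.97, 5.20 and 5.03 in R6/2, so that R6/2 3 reached the lower WT arrays. The difference was -0.34 ± 0.13 (limma, adjusted p = 0.228). The other tested probe had -1.54, -1.32, -1.34 and -1.14 in WT and -1.66, -1.70, -1.62 and -1.67 in R6/2, without overlap, and gave -0.33 ± 0.09 (adjusted p = 0.123). Among 8 markers of other striatal interneurons, all tested, all 8 had a negative difference and Th fell (-0.64 ± 0.09, adjusted p = 0.0259), and the list summed to 101 to 126 in WT and 59.0 to 95.9 in R6/2. Their part in the values of Lhx6 was not tested. Nkx2-1, which acts before Lhx6 and was also printed 10 times per array, had a difference of -0.07.

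Meis2, a cofactor of the Dlx proteins that stays in projection neurons, had 4.83, 4.51, 4.48 and 4.98 in WT and 4.49, 4.38, 4.28 and 4.21 in R6/2. R6/2 1 was just above WT 3, and the difference was -0.36 ± 0.13 (limma, adjusted p = 0.211). Its paralog Meis1 had a difference of 0.27 ± 0.14 (adjusted p = 0.372), and Meis3 of 0.01. Pbx2 and Pbx3, which bind DNA with Meis proteins, had differences of -0.04 and 0.19. Six3 and Tshz1, factors of the developing striatum, had 0.02 and -0.03. The fitted sign thus differed among Meis genes, and none of Meis1, Meis2 and Meis3 passed the test.

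**Figure D3:**
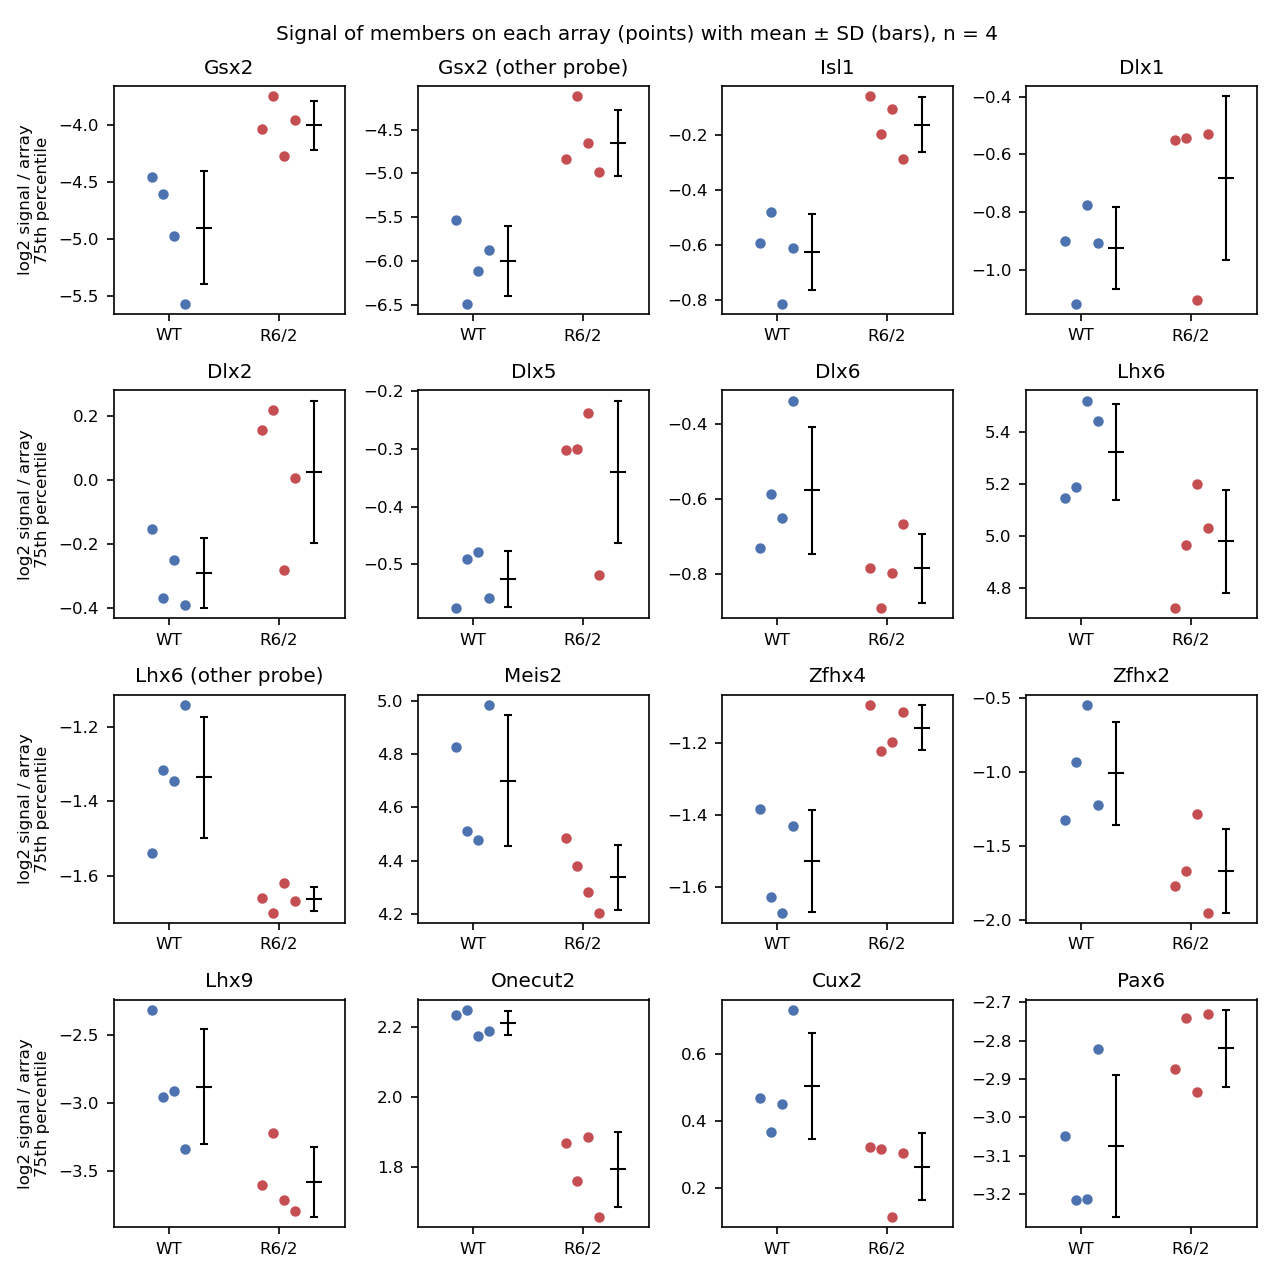
Log2 signal relative to the 75th percentile of each array for 14 members, with a further probe for Gsx2 and Lhx6, on each WT and R6/2 array (points, replicates 1 to 4 from left to right) with the mean and SD of each genotype (bars, n = 4). The genotypes do not overlap for either probe of Gsx2, for Isl1, Zfhx4, Onecut2 and Cux2, and for the dimmer probe of Lhx6.

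Of the 5 CUT and SATB genes, 1 was called, lower in R6/2, and 2 had an unadjusted p under 0.05, both lower. Over all genes 1.49% were called lower and 9.8% had such a p and a lower signal, and 5 genes are too few to set a share against these. Onecut2, a CUT homeodomain factor of developing neurons, had 2.23, 2.25, 2.18 and 2.19 in WT and 1.87, 1.76, 1.89 and 1.66 in R6/2. The WT arrays lay close together and all R6/2 arrays lay below them. The difference was -0.42 ± 0.07 (limma, adjusted p = 0.0416), or 1.34-fold. The call was lost with the replicate block (adjusted p = 0.0676), with no filter on dim probes (0.110) and in all 8 fits without 1 array (0.0535 to 0.116). It was kept in 6 of the 16 alternative fits, none of them with an array left out, and the size stayed between -0.45 and -0.37. In the authors' deposited table the corrected p of this probe was 0.0656, the lowest of any member probe.

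Onecut1, its paralog, was above background on 1 WT and 3 R6/2 arrays, with a fitted difference of 1.16 ± 0.55 (limma, adjusted p = 0.327). Cux2, a CUT factor of upper cortical layers and interneurons, had 0.47, 0.37, 0.45 and 0.73 in WT and 0.32, 0.32, 0.11 and 0.30 in R6/2. The genotypes did not overlap, with WT 4 highest and R6/2 3 lowest, and the difference was -0.24 ± 0.10 (adjusted p = 0.263). Its other probe gave 0.12 ± 0.07 (adjusted p = 0.440), so the probes of Cux2 lay on both sides of 0.

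Cux1, a paralog with many transcripts, had 2.23, 2.20, 2.09 and 2.23 in WT and 2.12, 2.09, 2.22 and 2.06 in R6/2. The genotypes overlapped, and the difference was -0.06 ± 0.07 (limma, adjusted p = 0.700). Another of its probes (chr5:136755342-136755401) had -3.23, -3.18, -3.51 and -3.31 in WT and -2.65, -3.10, -2.95 and -3.01 in R6/2, without overlap, and gave 0.38 ± 0.12 (adjusted p = 0.159). The remaining one gave 0.02. Satb1, a chromatin organizer with a CUT-like domain, had a difference of -0.02.

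Of the 10 genes of the dorsal forebrain, midline and diencephalon, 0 were called by limma, 1 had an unadjusted p under 0.05 and a higher signal (Pax6), and 1 a lower signal (Lhx9). In none of the 10 did the genotypes lie apart, as they did for 14.5% of all genes. Of all genes 1.95% were called, and 9.18% and 9.8% had such a p and a higher or lower signal. With 10 genes, a share is too coarse to set against these. Pax6, a paired homeodomain factor of cortical progenitors and of adult neuroblasts, had -3.05, -3.22, -3.21 and -2.82 in WT and -2.87, -2.74, -2.94 and -2.73 in R6/2. WT 4 was within the R6/2 range and the other WT arrays were below it, and the difference was 0.25 ± 0.11 (adjusted p = 0.274), or 0.10 with normexp. Lhx9, a LIM factor of the thalamus and other dorsal regions, had -2.31, -2.96, -2.91 and -3.34 in WT and -3.61, -3.22, -3.71 and -3.80 in R6/2. WT 1 was the highest array, and WT 4 lay below R6/2 2. The difference was -0.70 ± 0.22 (adjusted p = 0.160), and it was -0.52 without WT 1 and -0.33 with normexp.

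Lhx9 was highest on the array that was also highest for thalamic genes. Slc17a6, a glutamate transporter of thalamic neurons, had 0.55 on WT 1 and -1.09 or lower on the other 7 arrays. Tcf7l2, a thalamic transcription factor, had 0.04 on WT 1 and -1.64 or lower on the others. The 8 markers of thalamus and hypothalamus, all tested, summed to 6.63 on WT 1, 2.43 to 3.12 on the other WT arrays and 2.40 to 2.53 on the R6/2 arrays, with 0 called by limma. Their part in the difference of Lhx9 was not tested.

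Otx2, given here after its values were seen, varied more between arrays of 1 genotype than between the genotypes. Its brighter probe had 1.47, -0.60, 1.32 and -0.16 in WT and 1.14, -0.57, 0.36 and 0.35 in R6/2. WT 1, WT 3 and R6/2 1 were high, WT 2 and R6/2 2 low, and the difference was -0.19 ± 0.54 (limma, adjusted p = 0.892). Ttr, the transthyretin gene of the choroid plexus, had 7.70, 5.61, 7.78 and 6.16 in WT and 7.37, 5.33, 6.87 and 6.68 in R6/2, with the same arrays high and low. The 9 choroid plexus markers, all tested, summed to 109 to 380 in WT and 105 to 315 in R6/2, and 0 were called by limma. Their part in the signal of Otx2 was not tested.

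None of the other dorsal genes passed the test. Lhx2, a LIM factor of the cortex and hippocampus, had 2.25, 2.35, 2.63 and 2.05 in WT and 2.17, 2.25, 2.20 and 1.94 in R6/2. The genotypes overlapped, and the difference was -0.18 ± 0.13 (limma, adjusted p = 0.548). Tshz3, a zinc finger factor, had 0.28, 0.50, 0.69 and 0.71 in WT and 0.53, 0.58, 0.36 and 0.90 in R6/2, again overlapping, with a difference of 0.05 ± 0.14 (adjusted p = 0.895). Emx1, a marker of cortical projection neurons, had a difference of -0.25 ± 0.19 (adjusted p = 0.551), with -2.52 and -2.70 on R6/2 1 and R6/2 3 and -2.34 or higher on the other arrays. On those 2 arrays the 10 cortical markers, all tested, also summed lowest, to 17.3 and 14.2, against 21.3 and 25.2 on R6/2 2 and R6/2 4 and 22.0 to 28.6 in WT, and their part was not tested. The differences of Emx2, Prox1, Otx1 and Tshz2 ran from -0.35 to 0.28, with unadjusted p-values over 0.05 in limma.

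**Figure D4:**
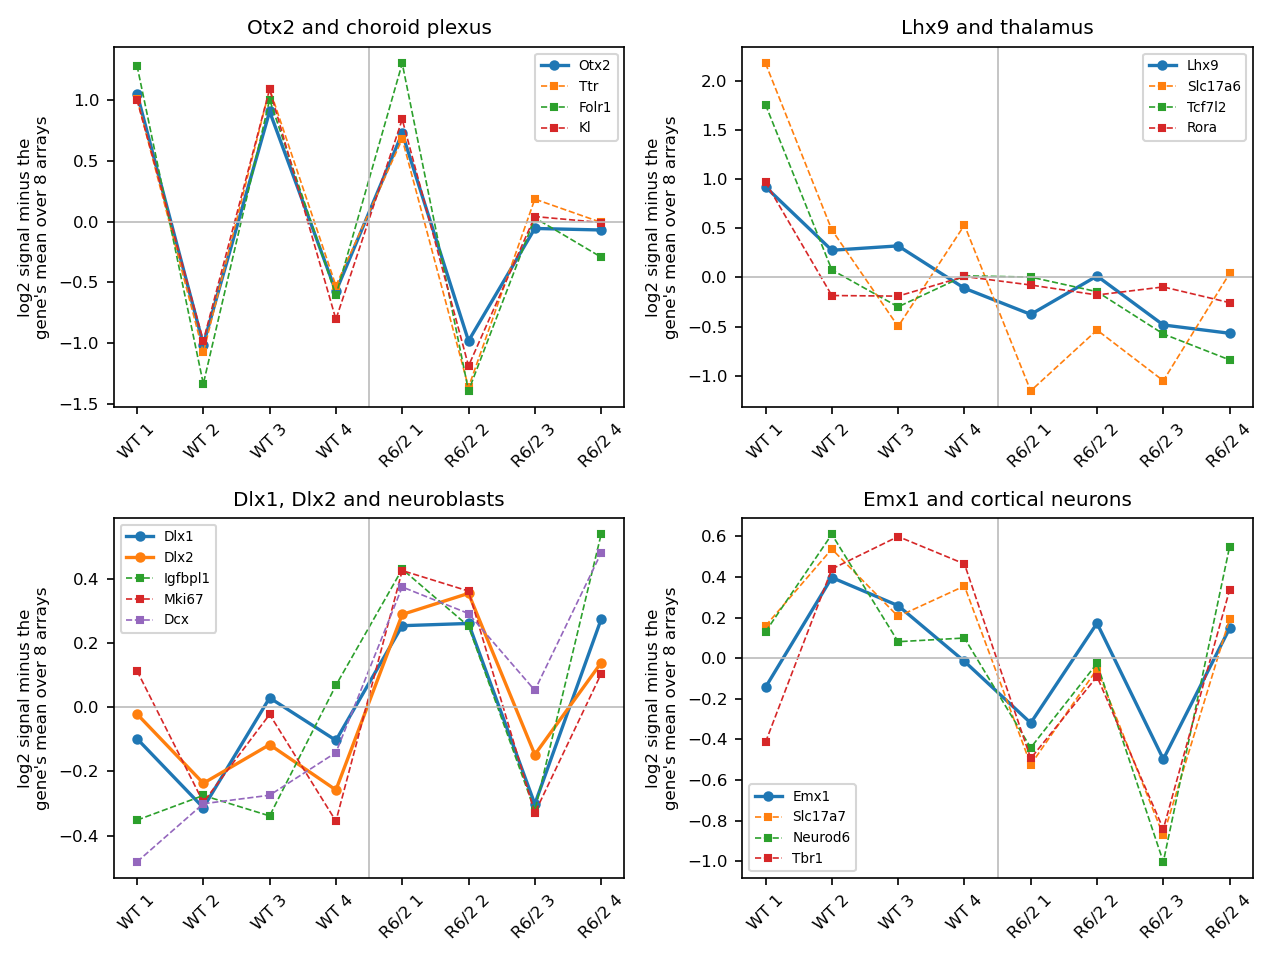
Log2 signal on each of the 8 arrays, minus the mean of the gene over the 8 arrays, for 5 members (solid lines and circles) beside markers of choroid plexus, thalamus, neuroblasts and cortical neurons (dashed lines and squares). Otx2 and Ttr are both high on WT 1, WT 3 and R6/2 1, and Lhx9 and Slc17a6 are highest on WT 1.

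Of the 6 POU genes, 0 were called by limma, 0 had an unadjusted p under 0.05, and 3 lay on each side of 0. Across all genes 1.95% were called and 19% had such a p, and 6 genes are too few to set a share against these. Pou3f1, a POU factor of cortical and oligodendroglial development, had 3.50, 3.54, 3.28 and 3.07 in WT and 3.27, 3.19, 3.17 and 2.88 in R6/2. WT 4 lay within the R6/2 range and the other WT arrays above it, and the difference was -0.22 ± 0.13 (limma, adjusted p = 0.444). Pou2f1, the widely expressed octamer-binding factor, had 1.49, 1.40, 1.48 and 1.30 in WT and 1.42, 1.58, 1.64 and 1.29 in R6/2. The genotypes overlapped here as well, at 0.07 ± 0.10 (adjusted p = 0.771). The 3 probes of Pou3f2, among them the coding probe printed above, gave 0.15, 0.20 and 0.10. Pou3f3 and Pou6f1 had -0.19 and -0.17, and Pou3f4, which specifies part of the ventral forebrain, had 0.47 ± 0.26 with 1 WT array above background.

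Neither of the Nkx genes of oligodendrocytes was called, where 1.95% of all genes were. Nkx2-2, which acts in oligodendrocyte precursors, had -1.30, -1.46, -1.08 and -1.12 in WT and -1.34, -1.04, -0.95 and -1.19 in R6/2, with a difference of 0.11 ± 0.12 (limma, adjusted p = 0.688). Nkx6-2, a gene of myelinating oligodendrocytes, had -0.32, -1.10, -0.10 and -0.70 in WT and -0.56, -0.34, -0.29 and -0.76 in R6/2, with 0.07 ± 0.22 (adjusted p = 0.900). The genotypes overlapped for both.

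Among the 4 zinc finger and divergent homeodomain genes, 0 were called by limma and 0 had an unadjusted p under 0.05 on the representing probe. Of all genes 1.95% were called and 19% had such a p, and 4 genes are too few to set a share against these. Adnp, an activity-dependent neuroprotective factor that binds chromatin, had 3.26, 3.25, 2.83 and 3.23 in WT and 3.47, 3.36, 3.26 and 3.33 in R6/2. R6/2 3 lay just below WT 1, WT 3 stood low, and the difference was 0.21 ± 0.11 (limma, adjusted p = 0.382). Its other probe did not overlap between the genotypes and gave 0.27 ± 0.07 (adjusted p = 0.109). Zeb1, a repressor of epithelial genes, had 2.72, 2.78, 2.50 and 2.83 in WT and 2.72, 2.64, 2.68 and 2.60 in R6/2, overlapping, with -0.05 ± 0.09 (adjusted p = 0.813). Zeb2 and Hopx, a small homeodomain protein that does not bind DNA, had 0.04 and -0.01.

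Other homeobox genes and the partners of homeodomain proteins gave the surroundings of these values. Of 157 other homeobox genes listed, 156 were on the array and 66 were tested. Of these 0 were called by limma, 6 had an unadjusted p under 0.05 and a higher signal and 3 a lower signal, and their median difference was 0.05. Such a p was thus found for 13.6% of them, against 19% of all genes, and 1.95% of all genes were called. The smallest p-values among them were those of the POU genes Pou2f2 (-0.51, adjusted p = 0.0732) and Pou4f1 (0.80, adjusted p = 0.0851). Of 22 cofactors tested, 1 was called (4.55%). This was Tle6, a member of the Groucho corepressor family, which fell by 1.11 ± 0.11 (adjusted p = 0.0102). Of 38 forebrain transcription factors outside the homeobox class, 5.26% were called. Sox11, given above, rose and Npas1, a factor of pallidal neurons and interneurons, fell by 0.77 ± 0.10 (adjusted p = 0.0185). In the table deposited by the authors, the corrected p was under 0.05 for 144 probes, of which 0 were member probes, and the uncorrected p was under 0.05 for 17 member probes.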

How the data were processed

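Striatal RNA of 4 WT and 4 R6/2 samples was labelled with the dye Cy3, per the labels' protocols, with 1 scanner file per sample. The intensity values deposited in the scanner files are processed spot signals made with Agilent Feature Extraction 10.7.3.1, spatially detrended with a surrogate value near background, per the file headers. The log2 values in the authors' deposited table equalled the log2 of these signals minus a constant per array, within 0.01 for 100% of the values, with column medians of -3.48 to -3.27. The normalization is not given in the sources used here, and no centring of genes was seen. The p-values and the fold ratios there come from an unpaired test with Benjamini-Hochberg correction, per the file headers.

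Here the log2 of the processed signal minus that of each array's 75th percentile (434 to 486 intensity units) was used. Flagged outlier spots were left out (2 among the members), spots of a probe averaged, and probes above background on at least 4 of 8 arrays tested by limma 3.58.1 (lmFit, eBayes; R 4.3.3), adjusted by Benjamini-Hochberg over 35121 probes. The scripts were tested on simulated data. Array number limits the precision. Alternatives were normexp (offset 50), quantile normalization, other filters, array weights, the deposited log2 values, the mean over a gene's probes, the deposited test, the replicate number as a block and leaving out each array.

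Same-numbered WT and R6/2 arrays deviated together (correlations 0.222, 0.183, 0.356 and 0.133) and shared a slide column. Only the fit with the replicate number as a block paired them. The main fit did not, and its SE and p-values leave this pairing out. Values per array are printed for members that were called, had an unadjusted p under 0.05 or did not overlap, and for the 2 of highest mean signal in each role, with others said to be chosen after their values were seen. The members and all gene and marker lists were chosen with earlier results of these data known. Gene names are those of the files.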

Additional observations from a re-analysis of the deposited data

Results flagged for a closer look

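For 7 of the 94 groups of 4 arrays tested, 1 array stood far from the other 3, with a gap to its nearest neighbour that was large against the range of the group. Chance alone gives this for about 1 in 20 groups. Dlx1 had -1.10 on R6/2 3, with the nearest R6/2 array at -0.55. Gbx1 had -1.58 on WT 4, with the nearest WT array at -4.17. Meis1 had 1.75 on R6/2 4, below the nearest at 2.16. Otx1 had -6.20 on WT 1, below the nearest at -5.29. Cux2 had 0.11 on R6/2 3, below the nearest at 0.30. Adnp had 2.83 on WT 3, below the nearest at 3.23. Zeb2 had 1.67 on WT 4, above the nearest at 1.61.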

How the results depend on the processing

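Of the member genes 1 was called (Onecut2). The count was 2 with normexp, with probes above background on all 8 arrays and with array weights (Onecut2 and Isl1 each time), 3 with the mean of a gene's probes (Onecut2, Isl1 and Gsx2, the last with a probe not measured in WT), 0 with no filter, 0 by the authors' deposited test, and 0 to 0 in the 8 fits without 1 array. With the replicate block it was 1, Zfhx2 in place of Onecut2. Over the whole array 330 genes were called. This count was 633 with normexp, 81 with no filter, 177 with the replicate block, 667 with array weights, 518 with the mean of probes and 78 to 319 without 1 array. Detected members numbered 47, and 42 with all 8 arrays required. The members' median difference lay between -0.02 and 0.02 without 1 array. The direction of Tshz3 turned without WT 1 (-0.04) or R6/2 4 (-0.06), in a range of -0.056 to 0.12 without 1 array, that of Nkx6-2 without WT 2 (range -0.11 to 0.22), and that of Cux1 with the mean of its probes (0.11), and the cause was not tested. For the members that the naming rule gives with values per array, and the dimmer Gsx2 probe, 317 values under the alternatives that gave them kept their direction and side of the threshold, 6 gained the call, 22 lost it and 4 turned. No block for slide or scan could be fitted, since all arrays shared 1 slide and 1 scan. Pairing by replicate number in limma took the adjusted p of Onecut2 (0.0676) and the dimmer Gsx2 probe (0.100) past 0.05. It brought that of Zfhx2 under 0.05 (0.0495) and moved no other call of a named member. Members near background are limited by signal, and differences under 1.5-fold by the 4 arrays per genotype.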
